A study of Homo sapiens with 4 samples.

Results

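The enzymes described here are aldo-keto reductases and other carbonyl-detoxifying enzymes in MCF12A, an established line of human breast epithelium that does not form tumours. The listed genes were the aldo-keto reductases AKR1A1, AKR1B1, AKR1B10, AKR1C1, AKR1C2 and AKR1C3, the aldehyde oxidase AOX1, the quinone reductase NQO1 and the carbonyl reductase CBR1. Of these 9 genes, 7 had a probe set that the platform annotation gave to that gene alone, and where there were several the probe set with the highest mean was taken. AKR1A1 and AKR1B1 were not analysed here. The 7 genes stand among 18417 genes with such a probe set, of which 10373 were bright enough to keep (highest intensity on the 4 arrays at or above 155).

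RNA was hybridised to 4 arrays, 1 per culture. One experiment set cells given 25 mM ethanol for 1 week beside an unexposed culture, control 1. The other set cells given 2.5 mM acetaldehyde for 1 week beside its own unexposed culture, control 2. All cultures, controls included, were of this single line and grew on plastic in horse serum, with cholera toxin, insulin, hydrocortisone and epidermal growth factor added. In such bulk RNA, fewer cells of a type and less RNA per cell cannot be told apart. With 1 array per arm no test was run, so every difference below is a log2 difference between 2 arrays with no replicate check, read beside the same difference over the 10373 kept genes. A difference is called when it reaches 2-fold (1.0 on the log2 scale).

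Aldo-keto reductases use NADPH to turn aldehydes and ketones into alcohols, and the AKR1C enzymes also reduce ketone groups of steroids and prostaglandins. NQO1 reduces quinones, CBR1 reduces quinones and other carbonyls, and AOX1, a molybdenum enzyme, oxidises aldehydes to acids. AKR1B10, the AKR1C genes and NQO1 are known targets of NRF2, a transcription factor that KEAP1 holds at a low level until electrophiles such as reactive aldehydes modify KEAP1. Acetaldehyde, the first product of ethanol oxidation, is itself a reactive aldehyde.

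AKR1C1 and AKR1C2 had nearly equal differences in every comparison of arrays, while their relative AKR1C3 stood apart from them in the ethanol experiment. Whether sequence before the start sites has a part in this was not tested. The sequences before the start sites of the AKR1C genes are shown first. Each is the 250 bases before the RefSeq start, read 5′ to 3′ on the gene's strand of GRCh38.p14. AKR1C1 lies at chr10:4963165-4963414 on the plus strand, AKR1C2 at chr10:5003858-5004107 on the minus strand and AKR1C3 at chr10:5048531-5048780 on the plus strand, the first of its 2 listed starts. Capitals mark the 2 runs of 12 bases present in all of these windows, the longest such runs.
AKR1C1: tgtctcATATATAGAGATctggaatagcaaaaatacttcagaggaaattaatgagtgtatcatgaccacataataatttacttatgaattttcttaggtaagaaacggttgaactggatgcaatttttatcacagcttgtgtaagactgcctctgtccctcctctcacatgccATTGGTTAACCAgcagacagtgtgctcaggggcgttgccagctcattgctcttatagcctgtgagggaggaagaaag
AKR1C2: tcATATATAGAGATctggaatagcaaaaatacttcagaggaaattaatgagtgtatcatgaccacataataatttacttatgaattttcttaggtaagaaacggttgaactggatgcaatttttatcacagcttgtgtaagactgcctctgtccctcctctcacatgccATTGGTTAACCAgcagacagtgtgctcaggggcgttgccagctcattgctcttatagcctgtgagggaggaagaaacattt
AKR1C3: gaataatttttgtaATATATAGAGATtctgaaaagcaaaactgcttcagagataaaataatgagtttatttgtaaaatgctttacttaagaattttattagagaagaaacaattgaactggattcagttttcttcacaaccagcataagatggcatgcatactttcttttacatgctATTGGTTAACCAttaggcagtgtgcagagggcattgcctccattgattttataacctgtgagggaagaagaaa
The AKR1C1 and AKR1C2 windows shared an unbroken run of 245 bases, with 0 differences in it. AKR1C3 matched AKR1C1 at 182 of 244 aligned positions, or 74.6%. The second run in capitals holds a CCAAT box on the opposite strand, which begins 77, 81 and 73 bases before the start of AKR1C1, AKR1C2 and AKR1C3. A CCAAT match on either strand was found in 32.0% of 35116 RefSeq windows of the same length.

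AOX1, which like NQO1 was higher with both agents, has a different kind of window. It lies at chr2:200585764-200586013 on the plus strand, and capitals mark its 2 GC boxes (GGGCGG), both on the opposite strand.
AOX1: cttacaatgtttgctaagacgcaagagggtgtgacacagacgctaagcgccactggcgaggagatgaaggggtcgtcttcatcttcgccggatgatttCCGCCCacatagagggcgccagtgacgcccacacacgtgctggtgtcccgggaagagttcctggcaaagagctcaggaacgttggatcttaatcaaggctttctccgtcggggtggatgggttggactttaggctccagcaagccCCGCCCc
GC boxes were searched on both strands and were present in 42.6% of all windows. Among the 8 listed genes with a window, AKR1A1, AKR1B1, AOX1, CBR1 and NQO1 had such a match and the AKR1C genes had none. AKR1B10 had no window in the table used. The core of the NRF2 site, TGACNNNGC on either strand, was present in 10.9% of windows and among the listed genes in that of CBR1 alone, here as a stretch at chr21:36069855-36069883 on the plus strand with the match in capitals, reading on the opposite strand.
CBR1: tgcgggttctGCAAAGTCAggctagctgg
The core of the aryl hydrocarbon receptor site, GCGTG on either strand, was found in 32.2% of windows and in those of AKR1B1 and CBR1. A match describes letters in the window, and sites farther from the start were not searched.

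The array values differed between experiments before any exposure was considered. The value distributions lay a mean of 0.0398 (log2) apart within the ethanol experiment and 0.0268 within the acetaldehyde experiment, against 0.270 to 0.285 across experiments, so values set across experiments carry this offset, and rescaled values are given beside those of the 7 genes. Control 2 minus control 1 had a median of 0.06 over the kept genes as deposited, 0.02 after quantile normalization of the 4 arrays together and -0.13 after centring each array. The basal keratin KRT5 had intensities of 9757.4 to 12169.4 on the 4 arrays. KRT14, its partner keratin, was at 5074.9 in control 1 and 3211.6 with ethanol, beside 1587.1 in control 2 and 822.0 with acetaldehyde. Markers of other cell types were mostly dim: 2 of 7 fibroblast, 2 of 4 measured leukocyte, 1 of 4 liver and 0 of 3 endothelial markers were kept. The summed leukocyte, liver and endothelial intensities ran from 1857.4 to 2263.7, 264.8 to 298.6 and 157.4 to 199.3.

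**Figure D1:**
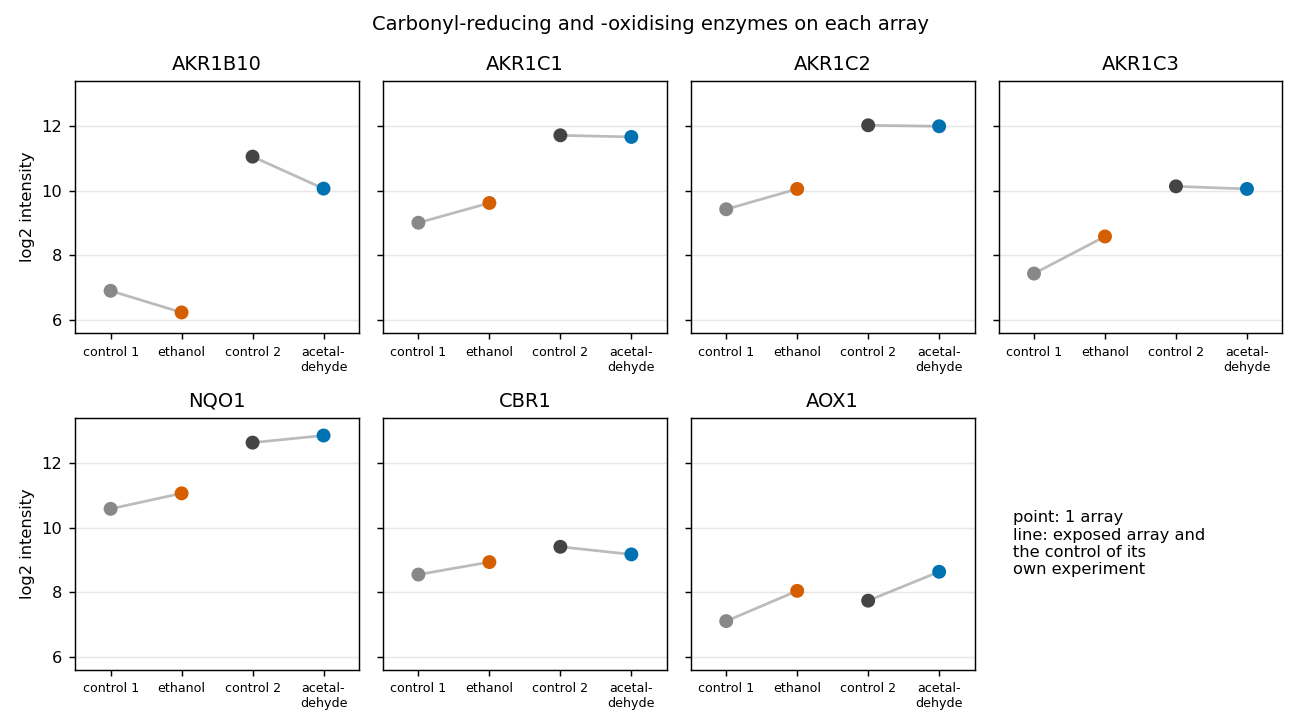
Log2 intensity of each of the 7 measured genes on each array; a point is 1 array and a line joins an exposed array to the control of its own experiment. AKR1B10, AKR1C1, AKR1C2, AKR1C3 and NQO1 lie higher on both arrays of the acetaldehyde experiment than on either array of the ethanol experiment. AOX1 and NQO1 are each higher on the exposed array than on the control in both experiments.

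The first question was how ethanol-exposed cells differed from control 1. Of the 7 genes, 6 were higher, as were 57.8% of all kept genes, and AKR1B10 was lower. The median difference of the 7 was 0.61, against 0.05 over all kept genes. AKR1C3 alone reached 2-fold higher, where 1.17% of kept genes did, and none reached 2-fold lower, where 2.11% did. AKR1B10 and AOX1 were under the brightness limit in control 1 and were kept through other arrays, so the number kept and this median describe the genes and are no evidence of a change.

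The AKR1C enzymes modify steroid hormones in breast cells. AKR1C1, which inactivates progesterone, had an intensity of 517.0 in control 1 and 789.8 with ethanol, and of 3372.2 in control 2 and 3248.2 with acetaldehyde. AKR1C2, which inactivates dihydrotestosterone, stood at 690.3, 1067.3, 4193.5 and 4090.5 on the same arrays. For both, the ethanol array was above its control and below both arrays of the other experiment. The ethanol difference was 0.61 for AKR1C1 (1.53-fold) and 0.63 for AKR1C2 (1.55-fold), and 4.91% and 4.65% of kept genes had a higher one.

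AKR1C3, which forms testosterone and prostaglandin F, had intensities of 173.7 in control 1 and 385.2 with ethanol, beside 1126.3 in control 2 and 1066.5 with acetaldehyde. Its ethanol difference was 1.15 (2.22-fold), the largest among the 7 genes and rank 71 among the kept genes. Quantile normalization of the 4 arrays left it at 1.02, still past 2-fold. The order of the arrays was that of AKR1C1 and AKR1C2, with the ethanol array between the controls.

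These values have a limit in the array design. AKR1C1 and AKR1C2 are near-identical copies, and their probe sets could read each other's transcripts, so how each of them contributes is uncertain. AKR1C1 had a second, dimmer probe set at 92.3 in control 1 and 120.4 with ethanol, beside 200.3 in control 2 and a level -0.0019 (log2) from that with acetaldehyde. Both of its values in the ethanol experiment were under the brightness limit of 155, so its differences of 0.38 with ethanol and 1.12 between the controls are no check of the brighter probe set.

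NQO1 and CBR1 differed less. NQO1 had intensities of 1531.4 in control 1 and 2136.3 with ethanol, beside 6323.8 in control 2 and 7384.7 with acetaldehyde. CBR1 had 373.8, 488.6, 678.1 and 576.1 on these arrays. For both genes the ethanol array lay between the controls, at differences of 0.48 for NQO1 (1.40-fold) and 0.39 for CBR1 (1.31-fold). For comparison, 8.41% of kept genes were higher than NQO1 and 12.8% higher than CBR1 in this experiment.

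AOX1 was at 137.6 in control 1 and 263.4 with ethanol, beside 213.4 in control 2 and 396.9 with acetaldehyde. Its ethanol value was thus above both controls, the only one of the 7 to be so, and its difference was 0.94 (1.91-fold). AKR1B10, which reduces retinal and other aldehydes, was at 120.0 in control 1 and 75.4 with ethanol, against 2139.1 in control 2 and 1077.7 with acetaldehyde. Its ethanol difference was -0.67 (1.59-fold lower), from values under the brightness limit on both arrays of that experiment.

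**Figure D2:**
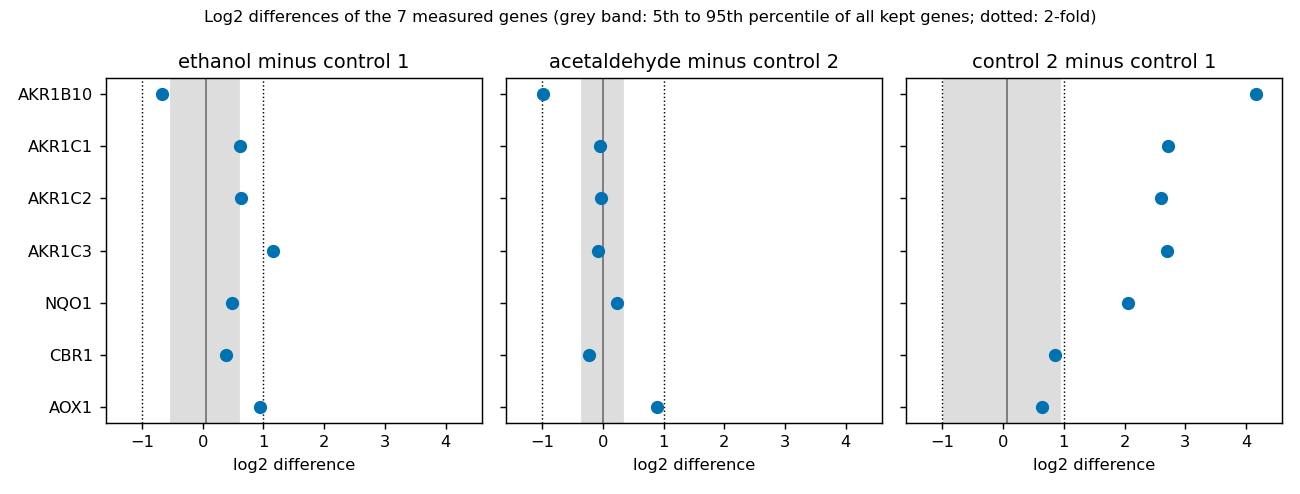
Log2 difference of each of the 7 genes (points) for ethanol minus control 1, acetaldehyde minus control 2 and control 2 minus control 1; the grey band spans the 5th to 95th percentile of the 10373 kept genes, the grey line is their median and dotted lines mark 2-fold. AKR1C3 passes 2-fold with ethanol, AOX1 and AKR1B10 lie outside the band in both exposures, AKR1C1 and AKR1C2 lie just above it with ethanol, and AKR1B10 reaches 4.16 between the controls.

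The acetaldehyde experiment asked the same of the metabolite, at its own dose. Of the 7 genes, AOX1 and NQO1 were higher than in control 2 and 5 were lower, as were 49.3% of all kept genes. The median of the 7 was -0.05, against 0.0031 over all kept genes. None reached 2-fold in either direction, as did 0.0289% of kept genes upward and 0.212% downward. AOX1 was higher by 0.90 (1.86-fold), rank 11 from the top among the kept genes and above both controls. AKR1B10 stood at -0.99 (1.98-fold lower), rank 24 from the bottom. After quantile normalization of the 4 arrays AKR1B10 was at -1.04 and so past 2-fold, while AOX1 was at 0.96.

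The AKR1C genes stayed close to control 2. Their acetaldehyde differences were -0.05 for AKR1C1, -0.04 for AKR1C2 and -0.08 for AKR1C3, in a comparison where the middle of the kept genes (25th to 75th percentile) ran from -0.12 to 0.12. NQO1 was higher by 0.22 (1.17-fold), above both controls, and CBR1 stood at -0.24 (1.18-fold lower), between them.

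**Figure D3:**
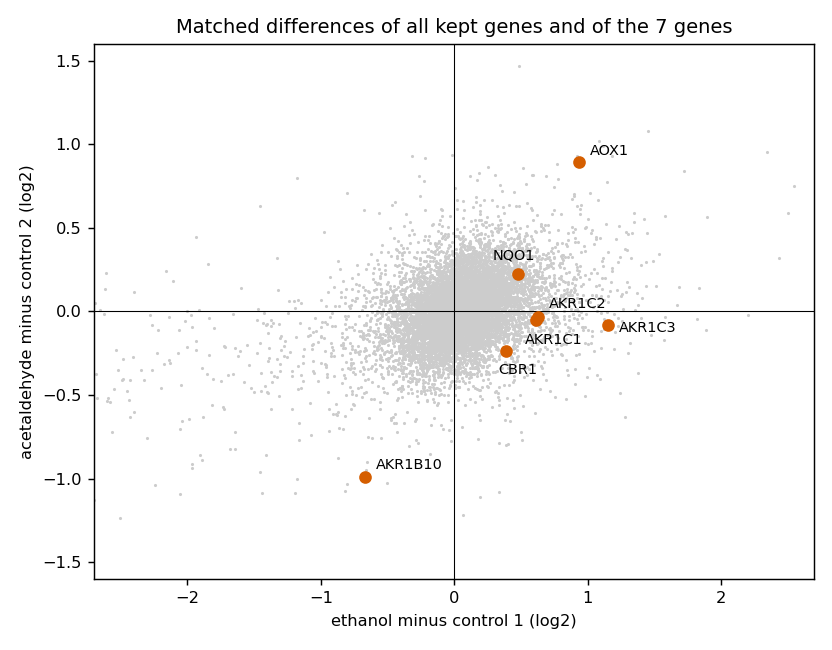
Ethanol minus control 1 (horizontal) against acetaldehyde minus control 2 (vertical), both as log2 differences; grey points are kept genes, of which 42 lie beyond the axes, and orange points are the 7 genes. AOX1 is at the upper right, AKR1B10 at the lower left, and the AKR1C genes lie to the right near 0 on the vertical axis.

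These matched differences share no array, and the doses of the agents differ, so their values are set side by side. AOX1 had 0.94 with ethanol and 0.90 with acetaldehyde. AOX1's own smaller difference, 0.895, was then taken as a cut-off, so AOX1 passes it by construction and the count tests nothing. The kept genes with both differences at or above it numbered 7, or 0.0675%. Besides AOX1 they were ANGPTL4, INHBA, THBS1, SNORD42A, SCARNA9 and SCARNA9L, named here after their values were seen. AKR1B10 was the gene of the 7 that was lower with both, at -0.67 and -0.99. AKR1C3 was furthest apart, at 1.15 and -0.08.

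The unexposed cultures differed from each other more than either exposure did from its control for 6 of the 7 genes, AOX1 being the exception. Control 2 was higher than control 1 for all 7 genes, as for 54.5% of all kept genes. Of the 7, 5 reached 2-fold higher, where 4.25% of kept genes did, and none reached 2-fold lower, where 4.85% did. AKR1B10 was 17.8-fold higher in control 2 (4.16), rank 2 among the kept genes, but its control 1 value of 120.0 was under the brightness limit, so the size of this fold is uncertain. AKR1C1 was 6.52-fold higher (2.71), AKR1C3 6.48-fold and AKR1C2 6.08-fold (2.60), at ranks 13, 15 and 19. NQO1 was 4.13-fold higher (2.05), CBR1 1.81-fold (0.86, or 0.67 after centring) and AOX1 1.55-fold (0.63, or 0.45 after centring).

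The same 5 genes were past 2-fold after both rescalings of the 4 arrays, with centred differences of 3.97 for AKR1B10, 2.52 for AKR1C1, 2.51 for AKR1C3, 2.41 for AKR1C2 and 1.86 for NQO1. Over all kept genes, centring moved the split of called genes from 441 higher and 503 lower to 277 higher and 763 lower. The ethanol difference and the control difference both subtract control 1, so they are not independent of each other.

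Because the controls lay so far apart, the sign of most differences rests on which control is subtracted. Set against control 2 instead, the ethanol array was lower for AKR1C1 (-2.09), AKR1C2 (-1.97), AKR1C3 (-1.55), NQO1 (-1.57), CBR1 (-0.47) and AKR1B10 (-4.83). AOX1 stayed higher, at 0.30. After quantile normalization these values were -2.22, -2.08, -1.67, -1.68, -0.59, -4.71 and 0.37 in the same order, and after centring -1.89, -1.77, -1.34, -1.36, -0.27, -4.62 and 0.51. Set against control 1, the acetaldehyde array was higher for all 7 genes, from 0.62 for CBR1 to 3.17 for AKR1B10 as deposited, from 0.61 to 3.08 after quantile normalization and from 0.46 to 3.0 after centring. AOX1 and NQO1 are thus the genes that were higher with acetaldehyde than in either control. For NQO1 the difference from control 2 was small: 11.6% of kept genes had a higher one, against 0.0964% for AOX1.

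Markers of squamous differentiation, the envelope and keratin programme of stratified epithelium, also differed between these arrays. Their summed intensity over 16 genes, 15 of them kept, was 38333.2 in control 1 and 4501.0 with ethanol, beside 17297.2 in control 2 and 9810.4 with acetaldehyde. Among the kept markers 15 of 15 had a lower value with ethanol (median -2.68) and 14 of 15 with acetaldehyde (median -0.56), while 11 of 15 were lower in control 2 than in control 1 (median -2.03, or -2.22 after centring). Of all kept genes, 42.2% were lower with ethanol, 49.3% with acetaldehyde and 45.5% in control 2. DSG1, IVL, KRT1, KRT4 and SPRR3 reached the brightness limit only in unexposed cultures, so their lower values on exposed arrays are partly built in. These marker counts and medians describe the arrays and are no evidence of a change. The array with the highest sum, control 1, had the lowest AKR1C1, AKR1C2, AKR1C3, NQO1, CBR1 and AOX1 values. The array with the lowest sum, ethanol, did not have the highest: it was below both arrays of the acetaldehyde experiment for 5 of those genes, AOX1 being the exception, and it had the lowest AKR1B10 value. The luminal and fibroblast sums, as deposited, also differed between the experiments. The luminal sum was 12043.6 in control 1 and 14159.7 with ethanol, against 7504.3 in control 2 and 7436.7 with acetaldehyde. Single markers did not all follow the sum. Of 8 kept, 5 were lower with ethanol (median of the 8 -0.235) and 5 with acetaldehyde (median -0.337). KRT8, KRT18 and EPCAM were the 3 higher ones with each agent. Of the lower ones, KRT19 and ELF3 reached the brightness limit only in unexposed cultures, so their lower exposed values are partly built in. Of 8 kept luminal markers 6 were lower in control 2 than in control 1, as were 45.5% of all kept genes. The other 2, KRT19 and ELF3, were higher, at 0.835 and 0.345. KRT19 reached the brightness limit in control 2 alone (184.0 against 103.1 in control 1), so its higher value there is partly built in. Of the 8, 3 reached 2-fold lower, where 4.85% of kept genes did, CD24 by 5.11-fold. The fibroblast sum was 551.5 and 458.6 in the ethanol experiment against 901.1 and 877.1 in the other, with DCN, a matrix proteoglycan, at 34.8 and 34.6 against 176.9 and 186.5. Only 2 of the 7 fibroblast markers were kept, so this sum rests in part on dim genes. Those 2, DCN and COL1A1, were at 2.34 and 0.57 between the controls (2.01 and 0.491 after quantile normalization). DCN reached the brightness limit only in the acetaldehyde experiment, so its higher value there is partly built in and the size of the difference is uncertain. The basal sum ran from 26102.7 to 28468.0. The part of any of these cell features in the differences of the 7 genes was not tested.

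Other members of the aldo-keto reductase family were mostly too dim to keep. Of 11 listed, 9 had a probe set and 4 were kept, and none of the 4 reached 2-fold in either exposure. Between the controls all 4 were higher in control 2, as were 54.5% of all kept genes. Their median there was 0.559 (0.371 after centring). KCNAB2, a potassium channel subunit with an aldo-keto reductase fold, was at 0.63 with ethanol, 0.15 with acetaldehyde and 1.18 between the controls (0.995 after centring). AKR7A2, which reduces succinic semialdehyde, was at -0.04 with ethanol and -0.22 with acetaldehyde. AKR1C4, the liver relative of the AKR1C genes, had intensities of 18.3 to 25.3 and was not kept.

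Other carbonyl and quinone reductases had medians of 0.0063 with ethanol and 0.0045 with acetaldehyde over 22 kept genes (-0.03 and -0.04 after quantile normalization), and none reached 2-fold. DHRS11, a short-chain dehydrogenase, came closest with ethanol at -0.999, just short of the limit (255.5 against 510.9 in control 1), and was at 0.07 with acetaldehyde. DHRS1, of the same family, was lower in both, at -0.64 and -0.75, and below both controls each time. PTGR1, a reductase of prostaglandins and enals, was at 0.50 and 0.29, and NQO2, the paralogue of NQO1, at 0.49 and 0.18.

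AOX1 needs a molybdenum cofactor. All 8 kept genes of the molybdenum enzyme and cofactor list had a higher value with ethanol, as did 57.8% of all kept genes; none reached 2-fold, and their median was 0.25. With acetaldehyde 3 of 8 were higher, against 50.7% of all kept genes, and the median of the 8 was -0.0021 (0.02 after centring). The related oxidase XDH was at 0.23 with ethanol and 0.54 with acetaldehyde, at 869.7 and 748.2 against 740.1 in control 1 and 516.0 in control 2. MOCOS, which adds the sulfur that AOX1 and XDH need, was at 0.23 and 0.21.

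Aldehyde dehydrogenases, the main route for acetaldehyde to acetate, had medians of -0.14 with ethanol and -0.04 with acetaldehyde over 12 kept genes. ALDH3B2 was the 1 member past 2-fold in either exposure, at -2.60 with ethanol, where 2.11% of kept genes reached 2-fold lower. ALDH1A3, which acts on retinal, was at -0.32 with ethanol and 0.93 with acetaldehyde, its value lying between the controls both times. In the glyoxalase and glutathione conjugation list (13 kept genes, medians 0.16 and -0.0039) GSTO1 and GSTM4 were at 0.91 and 0.90 with ethanol and at 0.19 and -0.04 with acetaldehyde.

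**Figure D4:**
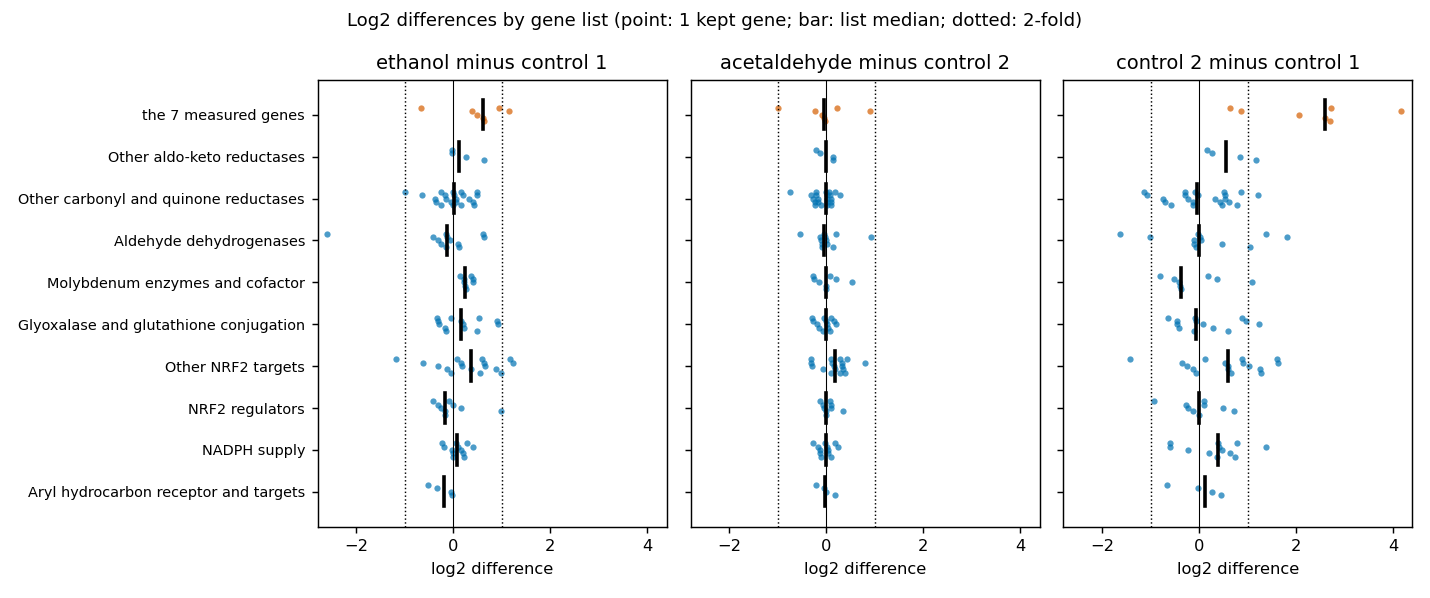
Log2 differences of kept genes by list for ethanol minus control 1, acetaldehyde minus control 2 and control 2 minus control 1; a point is 1 gene, the bar is the list's median and dotted lines mark 2-fold. The 7 measured genes (orange) have the highest median with ethanol (0.61) and between the controls (2.60) of the lists drawn, and one near 0 with acetaldehyde.

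Of the other NRF2 targets, 17 were kept, with a median of 0.37 for ethanol, 0.17 for acetaldehyde and 0.60 between the controls (0.41 after centring). With ethanol 12 of 17 were higher, against 57.8% of all kept genes. GCLC, a subunit of the enzyme for glutathione synthesis, and ABCC2, a conjugate export pump, were past 2-fold higher with ethanol at 1.23 and 1.17. The cystine transporter SLC7A11 was past 2-fold lower at -1.18. Of all kept genes, 1.17% reached 2-fold higher with ethanol and 2.11% reached 2-fold lower. GCLM, the partner subunit of GCLC, was at 0.97 with ethanol. It reached the brightness limit only on the exposed arrays, at 158.1 with ethanol and 193.1 with acetaldehyde, against 80.5 in control 1 and 147.5 in control 2. Its higher values with both agents are thus partly built in and are no evidence of a change. With acetaldehyde none reached 2-fold, although 13 of 17 were higher, against 50.7% of all kept genes, with SLC7A11 at 0.80 and GCLM at 0.39. HMOX1, heme oxygenase, was too dim to keep, at 133.7 to 151.1.

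The transcript of NRF2 itself was lower on each exposed array than on its own control. NFE2L2, the gene for NRF2, had 2235.9 in control 1 and 1664.4 with ethanol, beside 1908.2 in control 2 and 1754.5 with acetaldehyde, with differences of -0.43 and -0.12. KEAP1 was at -0.17 and -0.07. SQSTM1, which draws KEAP1 into autophagy, was at 0.99 with ethanol and 0.07 with acetaldehyde and was above both controls each time. The 25th to 75th percentile of kept genes ran from -0.12 to 0.12 with acetaldehyde. The KEAP1 and SQSTM1 differences with that agent lay inside this range and the NFE2L2 difference at its edge.

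Genes that supply NADPH had medians of 0.07 with ethanol (-0.0019 after quantile normalization) and -0.0012 with acetaldehyde over 12 kept genes, and none reached 2-fold in either exposure. The proton-driven transhydrogenase NNT, at 0.40 with ethanol, was 1.38 higher in control 2 than in control 1 (1.19 after centring). In the aryl hydrocarbon receptor list, whose receptor also acts on NQO1, 4 genes were kept and all 4 had a lower value with ethanol (median -0.19), as did 42.2% of all kept genes, with CYP1B1 at -0.53 and AHR at -0.34. With acetaldehyde their median was -0.02.

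The kept genes most like the AKR1C genes were sought by the distance, over the 3 differences from 4 arrays, to the mean of AKR1C1, AKR1C2 and AKR1C3 (0.80 with ethanol, -0.06 with acetaldehyde and 2.67 between the controls). The nearest were the syndecan SDC2 (distance 0.16), the natriuretic peptide receptor NPR3 (0.24), the complement protease C1S (0.31), the lysyl oxidase LOX (0.33) and the glycosyltransferase GALNT13 (0.35). LOX, for example, had intensities of 311.1 in control 1 and 472.5 with ethanol, beside 2370.7 in control 2 and 2280.3 with acetaldehyde. SDC2, NPR3, C1S and GALNT13 were under the brightness limit in control 1, at 134.2, 63.6, 50.2 and 23.9, so their distances rest in part on values near background. With 4 arrays such a likeness describes the order of these cultures and no more.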

How the data were processed

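RNA of 4 MCF12A cultures was read on Affymetrix Human Gene 1.0 ST arrays, and groups and pairs came from the sample labels. The authors deposited 1 linear intensity per probe set. RMA, a method that corrects background, quantile-normalizes arrays and summarises probes, is named in the submitters' processing notes, with software, version and genome build not given in the sources used here. Arrays have no read depth, and their number limits the precision. The log2 of the intensity was taken with no offset. Of 33297 probe sets 19460 named 1 gene symbol, 1754 named several and 12083 were not named in the annotation used. Gene IDs of 19429 matched the RefSeq table (GRCh38.p14), which changed 0 symbols. The highest-mean probe set stood for each of 18417 genes, 769 of which had several. A gene was kept where its highest value was at least 7.28 on the log2 scale, the median over every named gene's probe sets and arrays. Columns of other samples numbered 0. The genes, lists and steps were chosen with earlier results of these data known. Besides the 9 listed genes, up to 4 kept genes per list with the largest exposure difference were open to naming. So were NFE2L2, KEAP1, MOCOS and the 5 genes nearest the AKR1C mean. AKR1C4, HMOX1, ALDH2, ALDH1A1, single cell markers and the genes beside AOX1 were named after their values were seen. Marker lists were described by sums, counts, medians and single markers. Rescaled values across experiments were added after the data were seen. Promoter sequences are RefSeq's (GRCh38.p14), with windows for 8 of 9 genes, aligned with Biopython 1.88. The steps were tested on simulated data. Python 3.11.15, numpy 2.4.6, pandas 2.3.3 and matplotlib 3.10.9 were used.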

Additional observations from a re-analysis of the deposited data

Results flagged for a closer look

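For 4 genes the exposed array lay on opposite sides of its control in the ethanol and the acetaldehyde experiment. The ethanol difference exceeded the acetaldehyde difference by 1.23 (log2) for AKR1C3, by 0.67 for AKR1C1, by 0.67 for AKR1C2 and by 0.62 for CBR1. With 1 array per arm the difference between the responses was not tested, the doses differ, and the acetaldehyde differences of the AKR1C genes lay within 0.08 of 0.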

How the results depend on the processing

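Quantile normalization of the 4 arrays together, centring each array on its median and an offset of 16 before log2 moved each of the 21 differences of the 7 genes by at most 0.17, 0.19 and 0.17, less than the tolerance of 0.25 (the median SD of the 2 centred controls over kept genes). The mean over probe sets moved 1 of them, the control difference of AKR1C1, by more than that and took the median control difference from 2.60 to 2.05. The choice of control decided the signs. With the other experiment's control, the median became -1.57 for ethanol and 2.57 for acetaldehyde; with the mean of both controls, -0.54 and 1.25. In that order of settings, ethanol differences reversed to -2.09 and -0.74 for AKR1C1, -1.97 and -0.67 for AKR1C2, -1.55 and -0.20 for AKR1C3, -1.57 and -0.54 for NQO1, and -0.47 and -0.043 for CBR1. Acetaldehyde differences reversed to 3.17 and 1.09 for AKR1B10, 2.65 and 1.30 for AKR1C1, 2.57 and 1.27 for AKR1C2, 2.62 and 1.27 for AKR1C3, and 0.62 and 0.19 for CBR1. These reversals follow from the subtraction, since control 2 exceeded control 1 for these genes. AOX1 stayed higher in both exposures under each alternative run. The count of genes past 2-fold was 340 with ethanol, 25 with acetaldehyde and 944 between controls; it became 911 and 998 with the other control for ethanol and acetaldehyde, 253 for acetaldehyde with the mean of both, 48 for acetaldehyde and 1537 between controls with no dim filter, and 1002, 178 and 2889 at 1.5-fold. No probe set named a listed gene together with others, so that alternative gave no value. Signal near background limits AKR1B10 and the second AKR1C1 probe set on both arrays of the ethanol experiment, AOX1 in control 1 and GCLM in both controls. AKR1C3 in control 1 lay not far above the brightness limit.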
